A study of Mus musculus with 8 samples.

Results

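Cxcl12 and its receptors are a set of 3 genes: the chemokine ligand Cxcl12, its signalling receptor Cxcr4, and the atypical receptor Ackr3, which the array calls by its older symbol Cxcr7. Every probe on the array that carries 1 of these names, or whose transcript accession belongs to 1 of these genes, was taken. That gave 4 of 55681 probes, namely 2 for Cxcl12 and 1 each for Cxcr4 and Ackr3. All 3 genes were among the 24291 genes tested.

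RNA came from mouse cardiac outflow tracts, the vessel-like end of the embryonic heart through which blood leaves, microdissected at E10.5 and combined in pools of 4 tracts. Rescued Raldh2-/- embryos gave 4 pools, numbered 1, 2, 3 and 7 and called knockout pools here, and their rescued wild type littermates gave 4 more, numbered 1, 2, 5 and 7. Raldh2, now named Aldh1a2, makes retinoic acid in the embryo, and the knockout is present in the whole embryo. In both groups the dams ate food with 0.1 mg/g all-trans-retinoic acid between E7.5 and E8.5, so the wild type embryos had the supplement too and neither group shows the tract without it. The comparison asks what loss of Raldh2 does to the tract once this early supply has ended.

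CXCL12 is a secreted protein that holds to heparan sulphate in the matrix and draws cells that carry CXCR4, a receptor that signals through inhibitory G proteins. ACKR3 binds the same ligand but acts mainly through arrestins and takes the chemokine up, which lowers the amount outside the cell. In mouse embryos the 3 genes take part in the growth of the heart's vessels and septa: loss of Cxcl12 or Cxcr4 gives ventricular septal and coronary artery defects, and loss of Ackr3 gives malformed semilunar valves, the valves that form in the outflow tract. ACKR3 also takes up adrenomedullin, a vascular peptide.

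Cxcl12 is the member measured at more than 1 place. Both Cxcl12 probes lie on the plus strand of chromosome 6, at 117125026 to 117125085 and at 117131227 to 117131286 (mm9), with 6141 bases between them. The file assigns the first to transcript variant 1, which encodes the alpha form of the protein. It describes the second as variant 3 and lists with it another transcript of the gene, whose variant number it does not give, so this probe, called the variant 3 probe here, can detect both. The splice forms of Cxcl12 share the chemokine part and differ at the end of the protein. The Cxcr4 probe lies on the minus strand of chromosome 1 at 130485079 to 130485138, and the Ackr3 probe on the plus strand of chromosome 1 at 92111803 to 92111862 (mm9). Whether a probe lies in coding or untranslated sequence was not looked up, since no mm9 annotation was used here. The last 30 bases of each 60-base probe are shown because they tell the 2 Cxcl12 readouts apart, with the polyadenylation hexamer AATAAA in capitals where it occurs:
Cxcl12 variant 1 probe: tatttacctgaAATAAAatctactagttgt
Cxcl12 variant 3 probe: tgctttcttattcttatttttaatatatga
Cxcr4 probe: gtaaattgAATAAAgctagccgtgatcctc
Ackr3 probe: ttcttcaagtttttacttggtgactttttg
The hexamer stands in the variant 1 probe and in the Cxcr4 probe, and in neither of the others.

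Each level is the log2 of a probe's processed signal divided by the 75th percentile of its array, so 0 is the brightness of that percentile. Levels of different probes cannot be set against each other, since probes differ in brightness for equal RNA. All 4 probes were well above background and none was saturated on all 8 arrays. The scanner software gave each of these signals an error of 10 to 10.4%. Aldh1a2, the targeted gene, was at 2.02, 2.01, 1.87 and 0.06 in knockout pools 1, 2, 3 and 7, against 1.92, 3.21, 2.98 and 3.65 in wild type pools 1, 2, 5 and 7. Whether its probe lies in the deleted part of the gene was not looked up, so this is no full check of the labels. One array, that of wild type pool 1, differed from the rest, with a median signal of 2023 against 40.0 to 83.0 on the other 7, and its 75th percentile was 4211 against 658.8 to 1134. The results are therefore given for 8 pools and without that pool. On its array 94.69% of spots were well above background. Wild type pool 7 had the dimmest array, with a 75th percentile of 658.8 and 53.34% of spots well above background. On the remaining arrays that share was 61.06 to 63.19%. Knockout arrays filled row 1 of the slide and wild type arrays row 2, and genotype cannot be told apart from that position. Each pool had 1 array, and the number of arrays limits the precision. In pooled tissue, fewer cells that carry a transcript and less transcript per cell cannot be told apart.

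No member passed the test over all genes in either fit, nor did any other gene: limma called 0% of 24291 genes with 8 pools and 0% of 23670 without wild type pool 1, at an adjusted p under 0.05. At an unadjusted p under 0.05 limma had 433 genes (1.78%) with 8 pools and 2506 (10.6%) without that pool, none of them a member. The knockout and wild type pools overlapped for all 3 members with 8 pools, where 5.49% of genes did not overlap, and without wild type pool 1, where 11.4% did not. They also overlapped for each of the 4 probes, against 5.29% of 33404 probes without overlap with 8 pools and 11.2% of 32386 with 7.

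Cxcl12, by the variant 3 probe, varied less among the knockout pools than among the wild type pools. It was at 5.84, 5.82, 5.90 and 5.98 in knockout pools 1, 2, 3 and 7, against 2.75, 5.98, 5.48 and 5.06 in wild type pools 1, 2, 5 and 7. On this scale wild type pools 1, 5 and 7 lay below every knockout pool and wild type pool 2 above them all. Relative to the array median the knockout pools were at 9.78, 9.82, 9.90 and 9.38, against 3.81, 9.97, 9.58 and 9.10 in the wild type pools, so knockout pool 7 then lay below wild type pool 5. The means were 5.88 ± 0.07 (SD, n = 4) in knockout pools and 4.82 ± 1.43 (SD, n = 4) in wild type pools, a log2 difference of 1.07 ± 0.63 (SE; limma adjusted p = 0.735; two-sided exact permutation p = 0.143). Without wild type pool 1 the wild type mean was 5.51 ± 0.46 (SD, n = 3) and the difference 0.38 ± 0.21 (SE; limma adjusted p = 0.542; exact permutation p = 0.171, where the smallest possible is 0.0286). Its 95% interval then runs from -0.11 to 0.86, or 0.929 to 1.81 times the wild type signal. Leaving out wild type pool 7, the dimmest array, as well brought the difference to 0.15, and leaving out wild type pool 2 in its place brought it to 0.61.

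The variant 1 probe of Cxcl12 gave another order of pools. It was at 3.65, 3.33, 3.81 and 3.36 in knockout pools 1, 2, 3 and 7, against 1.37, 3.44, 3.46 and 3.40 in wild type pools 1, 2, 5 and 7. Here wild type pools 2, 5 and 7 were nearly equal and lay inside the range of the knockout pools, of which 1 and 3 were high and 2 and 7 low. The means were 3.54 ± 0.23 (SD, n = 4) in knockout pools and 2.92 ± 1.03 (SD, n = 4) in wild type pools, a difference of 0.62 ± 0.49 (SE; limma over single probes, adjusted p = 0.749). Without wild type pool 1 the wild type mean was 3.44 ± 0.03 (SD, n = 3) and the difference 0.10 ± 0.14 (SE; adjusted p = 0.817), with a 95% interval from -0.23 to 0.44. Over those 7 pools the 2 Cxcl12 probes had a Pearson correlation of 0.237 and a Spearman correlation of 0.107, given as a description. Over 8 pools, which add wild type pool 1 as the lowest of both, the Pearson correlation was 0.951.

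**Figure D1:**
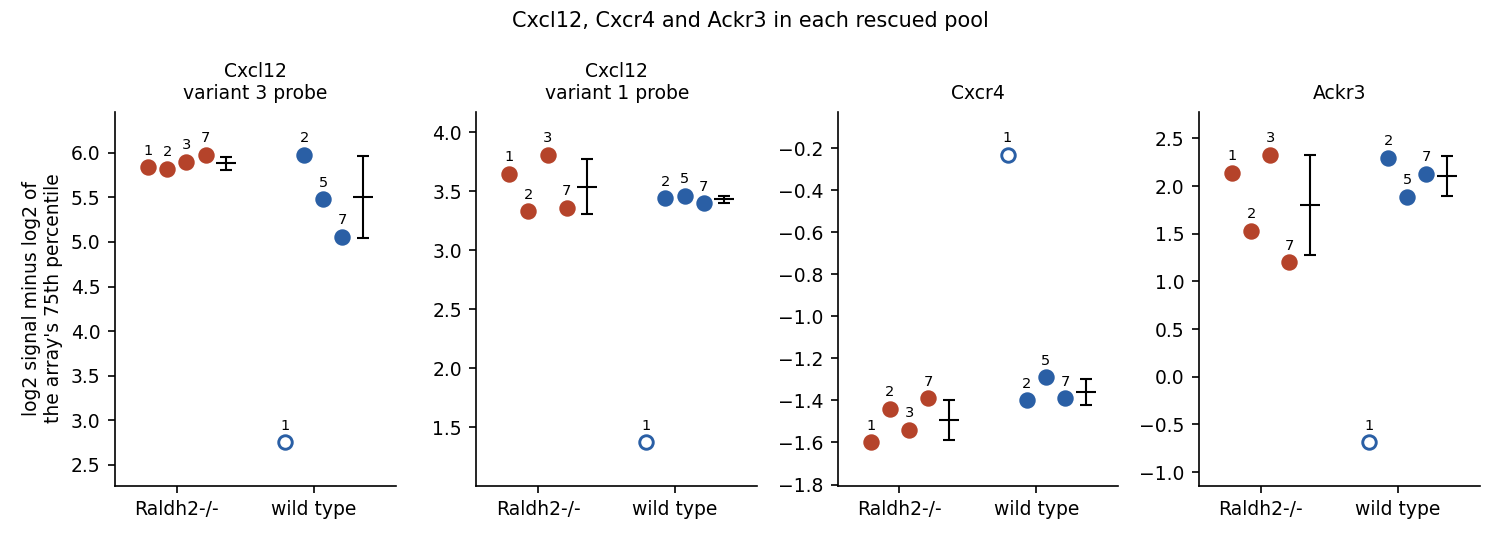
The level of each probe in every pool (y axis: log2 signal relative to the 75th percentile of the array; the axes differ between panels and do not start at 0), with the pool number above each point. Knockout pools are red and wild type pools blue, wild type pool 1 is drawn open, and the black bars give the mean and SD without it; on this scale that pool is the lowest for Cxcl12 and Ackr3 and the highest for Cxcr4, while the other pools of both groups overlap.

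Cxcr4, the receptor through which the ligand draws cells, had the smallest spread of the members outside wild type pool 1. It was at -1.60, -1.44, -1.54 and -1.39 in knockout pools 1, 2, 3 and 7, against -0.23, -1.40, -1.29 and -1.39 in wild type pools 1, 2, 5 and 7. Knockout pools 1, 2 and 3 lay below every wild type pool, while knockout pool 7 lay among them. The means were -1.49 ± 0.10 (SD, n = 4) in knockout pools and -1.08 ± 0.57 (SD, n = 4) in wild type pools, a difference of -0.42 ± 0.33 (SE; limma adjusted p = 0.735; exact permutation p = 0.0571). Without wild type pool 1 the wild type mean was -1.36 ± 0.06 (SD, n = 3) and the difference -0.13 ± 0.10 (SE; limma adjusted p = 0.634; exact permutation p = 0.114). The 95% interval of that difference runs from -0.36 to 0.10, or 0.779 to 1.07 times the wild type signal. Scaled by the array median in place of the 75th percentile, which moved the median over all genes to 0.67, the 8-pool difference of Cxcr4 was 0.12. The place of wild type pool 1 depends on the scale: relative to the array median it had the lowest Cxcr4 level of the 8 pools, at 0.83, against 2.02 to 2.81 in the others. Its unscaled Cxcr4 signal was 3595 and that of the other 7 arrays 252 to 389, but the median signal of that array was raised too, to 2023. On it the signal of Cxcl12 was 0.554 times (variant 3) and 1.02 times (variant 1) the mean of the other 7, and that of Ackr3 0.708 times. That array was thus not brighter by a common factor, so no single scaling factor brings all its probes level with the other arrays. The 8-pool differences of the members carry this limit.

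Ackr3, the receptor that clears the ligand, varied most among the knockout pools. It was at 2.14, 1.53, 2.33 and 1.20 in knockout pools 1, 2, 3 and 7, against -0.69, 2.30, 1.89 and 2.13 in wild type pools 1, 2, 5 and 7. Knockout pools 2 and 7 lay below wild type pools 2, 5 and 7, while knockout pools 1 and 3 lay among or above them. The means were 1.80 ± 0.52 (SD, n = 4) in knockout pools and 1.41 ± 1.41 (SD, n = 4) in wild type pools, a difference of 0.39 ± 0.66 (SE; limma adjusted p = 0.766; exact permutation p = 0.771). Without wild type pool 1 the direction turned: the wild type mean was 2.11 ± 0.21 (SD, n = 3) and the difference -0.30 ± 0.28 (SE; limma adjusted p = 0.71; exact permutation p = 0.457). The 95% interval then runs from -0.97 to 0.36, or 0.511 to 1.28 times the wild type signal, the widest of the members. Knockout pools 1 and 3 were the high pools, and 2 and 7 the low ones, for both Ackr3 and the variant 1 probe of Cxcl12. Knockout pool 7 was also the pool with the least Aldh1a2 signal and had the lowest Ackr3 level of the 7 pools; 1 pool cannot show a relation between them.

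**Figure D2:**
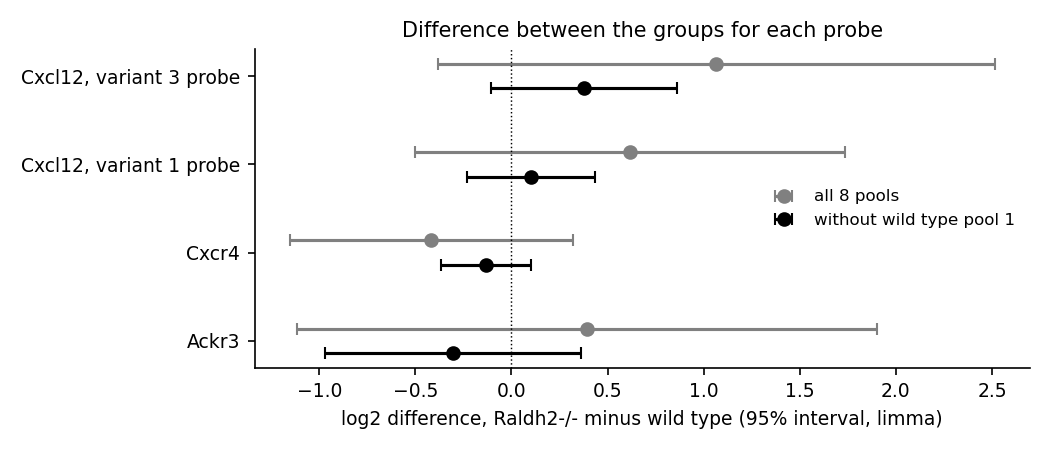
Log2 difference between Raldh2-/- and wild type pools for each probe (x axis; points are differences and bars 95% intervals from limma over single probes), with 8 pools in grey and without wild type pool 1 in black. Every interval includes 0, and Ackr3 changes side when wild type pool 1 is left out.

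Whether the members differ from each other in their response was tested within pools, where a single scaling factor per array cancels. Cxcl12 (variant 3) minus Cxcr4 was 7.45, 7.25, 7.45 and 7.36 in knockout pools 1, 2, 3 and 7, against 2.98, 7.39, 6.77 and 6.45 in wild type pools 1, 2, 5 and 7. The knockout pools were close together, and only wild type pool 2 lay among them. The difference averaged 7.38 ± 0.09 (SD, n = 4) in knockout pools and 6.87 ± 0.48 (SD, n = 3) in wild type pools 2, 5 and 7. The size of such a difference reflects the brightness of the probes and carries no meaning. A fixed brightness cancels from its shift between groups, which was 0.51 (exact permutation p = 0.0857, adjusted over 3 pairs 0.257). The shift still depends on which Cxcl12 probe is used. With the mean of both Cxcl12 probes the 8-pool shift was 1.26 in place of 1.48 (exact permutation p, adjusted over 3 pairs, 0.257). Cxcl12 minus Ackr3 was 3.71, 4.28, 3.57 and 4.77 in the knockout pools, against 3.44, 3.68, 3.59 and 2.94 in the wild type pools, so the groups overlapped by a little. It averaged 4.08 ± 0.55 in knockout pools and 3.40 ± 0.41 in the same wild type pools, a shift of 0.68 (exact permutation p = 0.2, adjusted 0.3). Cxcr4 minus Ackr3 shifted by 0.17 (exact permutation p = 0.686). With wild type pool 1 the shifts were 1.48, 0.67 and -0.81, with exact permutation p of 0.0857, 0.0857 and 0.657 before adjustment and 0.129, 0.129 and 0.657 after it. Quantile normalization, which does not cancel, gave 0.87, -0.17 and -1.04 with 8 pools, and normexp with quantile normalization 0.80, -0.10 and -0.90, so the direction of Cxcl12 minus Ackr3 turned in both. The 2 Cxcl12 probes, compared in the same way after their values were seen, differed by 2.35 ± 0.25 (SD, n = 4) in knockout pools and by 2.07 ± 0.44 (SD, n = 3) in wild type pools 2, 5 and 7, a shift of 0.27 (exact permutation p = 0.343). With wild type pool 1 that shift was 0.45 (exact permutation p = 0.143). No pair passed. The smallest possible p of these permutation tests was 0.0286 with 7 or 8 pools, and no pair reached it. Adjusted over 3 pairs, 1 pair at that value could not have passed 0.05 without another there too. That no adjusted p passed therefore cannot decide whether the members differ in their response.

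**Figure D3:**
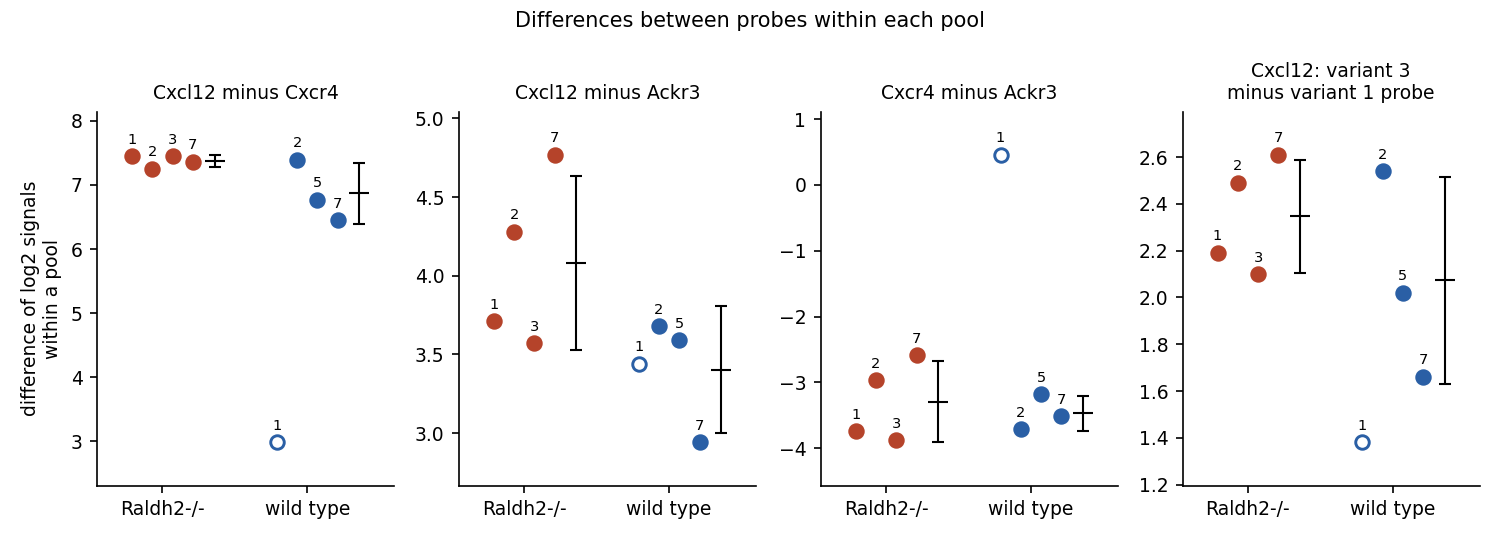
Difference of the log2 signals of a pair of probes within each pool (y axis, in log2 units; the axes differ between panels), with pool numbers above the points, wild type pool 1 drawn open, and the mean and SD without it in black. Cxcl12 minus Cxcr4 is nearly constant in the 4 knockout pools and is spread out among the wild type pools, and the groups overlap in every panel when wild type pool 1 is left out.

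Beyond the members, 68 genes of the axis were listed by role, and 67 of them were tested: 16 other ligands, presenters and modifiers, 20 G proteins, receptor kinases, arrestins and RGS proteins, and 31 downstream kinases, adaptors and GTPases. With 8 pools 0 of 67 passed over all genes. At an unadjusted p under 0.05, 1 was higher and 2 lower in the knockout, against 0.659% and 1.12% of all genes. The groups did not overlap for 6 higher and 3 lower ones, against 3.95% and 1.54% of all genes. Without wild type pool 1, 0 of 66 passed, 4 were higher and 7 lower at an unadjusted p under 0.05 (6.24% and 4.35% of all genes), and 6 higher and 7 lower ones did not overlap (6.55% and 4.88%). The median log2 difference over the 66 genes was 0.04, against 0.05 over all genes, and 89.4% lay within 0.5 of 0, against 88.9% of all genes. With 8 pools the median was 0.40, against 0.13 over all genes, and 46.3% lay within 0.5 of 0, against 59.1% of all genes. The 3 lists had medians of 0.38, 0.41 and 0.40 in the order above with 8 pools and of -0.01, 0.07 and 0.04 without wild type pool 1. Positive values numbered 12 of 16, 16 of 20 and 23 of 31 with 8 pools, against 57.1% of all genes, and 7 of 16, 11 of 20 and 19 of 30 without that pool, against 59.3%.

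Among the other ligands and modifiers the lowest value belonged to Adm, which encodes adrenomedullin, another ligand that ACKR3 takes up. Adm was at -0.53, -1.07, -0.13 and -1.49 in knockout pools 1, 2, 3 and 7, against 0.10, 1.35, 0.55 and 2.26 in wild type pools 1, 2, 5 and 7. All knockout pools lay below all wild type pools, with a difference of -1.87 ± 0.52 (SE; limma adjusted p = 0.735) with 8 pools and -2.19 ± 0.46 (SE; limma adjusted p = 0.328) without wild type pool 1. The signalling receptor for adrenomedullin did not show a shift of that size: Calcrl, its receptor chain, had -0.42 ± 0.33 and -0.29 ± 0.28 in the 8-pool and 7-pool fits, and Ramp2, the chain that makes it an adrenomedullin receptor, 0.57 ± 0.50 and 0.04 ± 0.14. Syndecan Sdc4, a heparan sulphate carrier that binds CXCL12, had -1.01 ± 0.51 and -1.32 ± 0.46. Ndst1, an enzyme that sulphates heparan chains, had 0.88 ± 0.45 and 0.43 ± 0.17. Dpp4, the protease that cuts the start of CXCL12, had -0.62 ± 0.66 and -0.19 ± 0.60.

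Among the transducers, Arrb2, the arrestin that binds both receptors, was level at -0.04, -0.27, -0.17 and -0.03 in knockout pools 1, 2, 3 and 7, against -0.10, -0.09, -0.08 and -0.14 in wild type pools 1, 2, 5 and 7. Its difference was -0.02 ± 0.23 with 8 pools and -0.02 ± 0.10 without wild type pool 1 (SE). The highest values belonged to RGS genes, whose proteins shorten G protein signals. Rgs2 was at 2.84, 3.35, 2.94 and 3.85 in the knockout pools, against 0.47, 2.64, 2.66 and 1.91 in the wild type pools, with a difference of 1.32 ± 0.52 (SE; limma adjusted p = 0.735). The 7-pool difference was 0.84 ± 0.30 (limma adjusted p = 0.418). Rgs5, also a pericyte marker, had 0.97 ± 0.44 and 0.57 ± 0.23. Both kept every knockout pool above every wild type pool. Rgs4 had 0.79 ± 0.37 and 0.51 ± 0.23, with overlap.

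Downstream, Ptk2b, a calcium-responsive kinase of the focal adhesion kinase family, was at -0.92, -1.04, -0.54 and -1.34 in knockout pools 1, 2, 3 and 7, against 0.70, -0.13, -0.22 and 0.59 in wild type pools 1, 2, 5 and 7. The groups did not overlap, and the difference was -1.20 ± 0.33 (SE; limma adjusted p = 0.735) with 8 pools and -1.05 ± 0.25 (SE; limma adjusted p = 0.347) without wild type pool 1. Limk1, a kinase that acts on cofilin and so on actin, had 0.85 ± 0.40 and 0.47 ± 0.17.

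Of 30 other chemokines 17 were bright enough to be tested, and of 23 other receptors 11; 9 and 7 were well above background on every array. Medians were -0.30 and -0.77 with 8 pools, and 0.10 over 15 chemokines and 0.13 over 9 receptors without wild type pool 1, so both changed sign with that pool. Ppbp, a platelet chemokine, was at -0.89, -0.93, -1.02 and -1.11 in the knockout pools, against -0.86, 1.02, -0.33 and 0.13 in the wild type pools, a difference of -0.97 ± 0.40 and, without wild type pool 1, of -1.26 ± 0.29 (SE; limma adjusted p = 0.345). Pf4, the other platelet chemokine, named after its values were seen, had -0.56 ± 0.73 with 8 pools and -1.30 ± 0.40 without that pool. The knockout pools lay below the wild type pools without overlap for both in the 7-pool fit, as they did for 4.88% of all genes. Of the 15 chemokines in that fit 3 were lower and 3 higher without overlap, Cxcl10 among the higher ones. Ccl19 had -0.79 ± 0.30 and -0.70 ± 0.23 in the 8-pool and 7-pool fits. Cxcl10, an interferon-induced chemokine, was well above background in 4 of 4 knockout and 2 of 4 wild type pools, so it was tested only through the knockout group and the size of its difference is not given. Ackr2, another scavenging receptor, had -2.01 ± 0.77 and -1.26 ± 0.48, and its highest value was in wild type pool 1. Gpr182, an atypical chemokine receptor of endothelium, was at 1.61, 1.64, 2.32 and 0.90 in the knockout pools, against 2.35, 1.58, 2.22 and 3.40 in the wild type pools, a difference of -0.77 ± 0.45 and, in the 7-pool fit, of -0.78 ± 0.47, with overlap. Cxcl14, which was well above background in 7 pools, had 0.55 ± 0.47 and 0.79 ± 0.44.

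**Figure D4:**
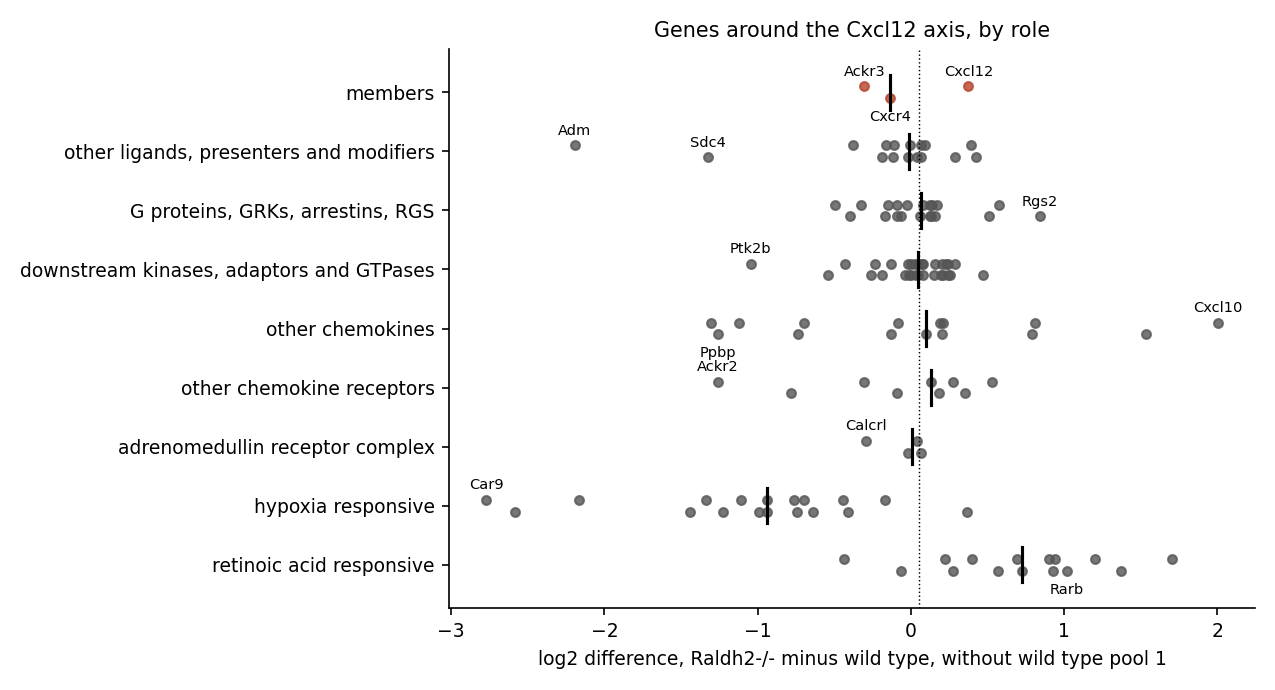
Log2 difference between Raldh2-/- and wild type pools without wild type pool 1 (x axis) for the members and for the tested genes of 8 lists; each point is a gene, the black bar the median of its list, and the dotted line the median of all genes; the point of Cxcl10 rests on wild type pools in part not well above background. The members and most axis genes lie near the dotted line, Adm, Sdc4 and Ptk2b lie to the left of it, and hypoxia responsive genes lie mostly to the left and retinoic acid responsive genes mostly to the right.

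Genes that respond to low oxygen bear on the members because, in human cells, CXCR4 is a known target of the hypoxia-inducible factors. With 8 pools 16 of the 18 listed genes were negative and their median was -0.70, and 6 were lower at an unadjusted p under 0.05. In the 7-pool fit these values were 17 of 18, -0.94 and 15. Over all genes 1.12% were lower at that p with 8 pools and 4.35% with 7, 57.1% and 59.3% were positive, and the medians were 0.13 and 0.05. Car9, a carbonic anhydrase of this response, had -2.61 ± 0.40 and -2.77 ± 0.36, and Vegfa -0.76 ± 0.44 and -1.11 ± 0.31, while Cxcr4 had -0.42 and -0.13 in the same fits. The core letters GCGTG of the site these factors bind, searched on both strands in the 250 bases before each gene's start together with ACGTG, stand once before Cxcr4 and once before Ackr3, and ACGTG before none of the 3 genes. Before Cxcl12 neither was found. GCGTG is in 28.2% and ACGTG in 16.6% of the 32851 promoters searched, so a match describes the letters only. The 60 bases around each match, from RefSeq, are shown with the match in capitals; they lie at chr1:128592306-128592365 on the minus strand and chr1:90203833-90203892 on the plus strand (GRCm38.p6), with the match starting 39 and 120 bases before the gene's start:
Cxcr4: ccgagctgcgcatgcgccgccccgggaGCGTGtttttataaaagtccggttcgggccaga
Ackr3: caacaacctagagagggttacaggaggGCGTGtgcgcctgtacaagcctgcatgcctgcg
The retinoic acid receptor half-sites AGGTCA and GGGTCA, found on either strand in 14% and 11.6% of these promoters, were in none of the 3 windows, nor was a direct repeat of AGGTCA or of AGTTCA with 5 bases between the copies.

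Of the 15 retinoic acid responsive genes tested, 14 were positive with 8 pools (median 0.90) and 13 without wild type pool 1 (median 0.72), against 57.1% and 59.3% of all genes, whose medians were 0.13 and 0.05. At an unadjusted p under 0.05, 8 and 6 were higher, against 0.659% and 6.24% of all genes. Rarb, a receptor gene that is itself a target, had 1.31 ± 0.34 and 1.02 ± 0.14, and Hoxb4 1.74 ± 0.52 and 1.37 ± 0.43. The hypoxia and retinoic acid lists were drawn up with earlier results of these data known, so their directions are no independent evidence.

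Marker genes of several cell types were set beside the tissue label. All 15 heart muscle, all 16 endothelial and endocardial, and all 10 second heart field markers were well above background on all 8 arrays, as were 6 of 7 smooth muscle markers, with Myh11 the exception. Of 15 macrophage and leukocyte markers, 8 were, without Ptprc, Spi1 or Cd68. So were 7 of 7 epicardial and mesothelial, 11 of 12 erythroid, 9 of 11 crest-derived mesenchyme and 7 of 10 neural crest and neuronal markers. Of the 36334 genes on the array, 20634 passed the same filter on all 8 arrays. These counts therefore cannot tell the tract from tissue next to it. Endothelium and leukocytes are known to carry Cxcr4 and Ackr3 or Cxcr4, so their summed signals, relative to the 75th percentile, are set beside the members. Over 16 endothelial genes the sum was 71.5 to 101.2 in knockout pools, against 74.7 to 101.2 in wild type pools 2, 5 and 7; pool 1 of the wild type had 25.8. Over 14 leukocyte genes it was 21.1 to 29.3 in knockout pools, against 17.7 to 24.3 in the same wild type pools and 12.9 in wild type pool 1. Outside wild type pool 1 most of that sum came from 1 gene, Itgam. It was at 4.50, 4.40, 4.28 and 4.03 in the knockout pools, against 2.04, 3.93, 4.16 and 3.77 in wild type pools 1, 2, 5 and 7. The mean log2 level of the 14 genes, centred on the 7 pools, ordered the pools otherwise: it was -0.32 to 0.65 in knockout pools, against -0.59 to 0.59 in wild type pools 2, 5 and 7, and highest in wild type pool 1, at 1.32. Over 10 markers of crest-derived mesenchyme the summed signal was 56.2 to 63.0 in knockout pools, against 47.7 to 60.7 in the same wild type pools and 13.1 in wild type pool 1. Markers of tissue next to the tract varied between pools of the same group. For 9 markers of pharyngeal epithelium, 5 of them well above background on all arrays, the centred mean was 0.54, 0.28, -1.18 and 1.44 in knockout pools 1, 2, 3 and 7, against 1.53, 1.38, -1.24 and -1.21 in wild type pools 1, 2, 5 and 7. Wild type pool 2 was thus above wild type pools 5 and 7 for these markers, as it was for the variant 3 probe of Cxcl12. By the centred mean it was also above them for the erythroid, leukocyte, crest-derived mesenchyme, neural crest and neuronal, second heart field and smooth muscle markers. It was not for the endothelial, heart muscle or epicardial ones. Among knockout pools the epithelial mean ran from -1.18 to 1.44, while that Cxcl12 probe ran from 5.82 to 5.98. No link between them was tested. All 12 erythroid markers had positive differences in both fits (medians 1.01 and 0.54), but 0 had an unadjusted p under 0.05 and 0 lacked overlap. Their centred mean was 0.23, 0.76, -0.55 and 0.46 in knockout pools 1, 2, 3 and 7, against 0.71, -1.11 and -0.50 in wild type pools 2, 5 and 7. Of the 15 heart muscle markers 12 were positive with 8 pools and 0 without wild type pool 1 (medians 0.25 and -0.18). Over all genes 57.1% and 59.3% were positive. The share of these cell types in the values of Cxcl12, Cxcr4 and Ackr3 was not tested.

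The genes with the pattern most like each member were sought among 15000 other named genes by Pearson correlation over the 7 pools other than wild type pool 1, as a description. For Cxcl12 (variant 3) they were Gpr65 (0.978), Gsc (0.977) and Sema4f (0.976), and 31 genes exceeded 0.95. Gpr65 and Sema4f were well above background on only 5 of 8 arrays, 3 knockout and 2 wild type, so both were kept only through the knockout group. For Cxcr4 they were Trmt10b (0.973), Atl2 (0.965) and Vps4b (0.949), with ranges over the 7 pools of 0.298, 0.313 and 0.242 log2 units, as narrow as the 0.314 of Cxcr4. For Ackr3 they were Zc3h3 (0.967), Col8a2 (0.967) and Rbl2 (0.963). Only Zc3h3 kept a high correlation with its member over 8 pools (0.984); the others ran from -0.94 to 0.214. Between the members the correlation was -0.408 over 7 pools and -0.96 over 8 for Cxcl12 and Cxcr4, -0.171 and 0.865 for Cxcl12 and Ackr3, and -0.366 and -0.93 for Cxcr4 and Ackr3. The 8-pool values rest on wild type pool 1. These points share 1 slide and the group difference.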

How the data were processed

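Each array held Cy3-labelled RNA of 1 pool (50 ng, integrity number above 8, columns without DNase, per the labels' protocols). The authors deposited 1 Agilent Feature Extraction 10.7.3.1 file per array (protocol GE1_107_Sep09, design 028005, mm9, per the file headers). Its values are intensity, background-subtracted and detrended within the array, not scaled between arrays. The deposited matrix held the same intensity rounded, with a largest difference of 0.496%, and no other column of sample values was used. From these, spots flagged as outliers were dropped, spots of a probe averaged, and probes were kept that 3 or more arrays of a group put well above background. A gene took its kept probe with the highest mean, named through its accession (26056 probes matched) or the file. The group difference was fitted in limma 3.58.1 under R 4.3.3 (functions lmFit and eBayes; two-sided p, Benjamini-Hochberg over all genes, or over all kept probes for single probes, threshold 0.05) and for members with exact permutation tests over 70 or 35 assignments. The fit was tested on simulated data.

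The members and the 18 gene lists were chosen with earlier results of these data known, so no list was tested. Named genes were the members with all probes, Aldh1a2, from each list the 2 or 3 genes lowest in unadjusted p, Adm, Calcrl, Ramp2, Dpp4, Arrb2, Cxcl14 and Vegfa, and the 3 genes most like each member; some of these are left out of the text. Same-numbered pools were treated as independent: the correlations of their deviations from the group means were -0.151, 0.324 and -0.406 for pools 1, 2 and 7. Alternatives were quantile, median and normexp scaling (offset 50), the matrix values, other filters on dim probes, averaging a gene's probes or taking them singly, eBayes with trend and robust, arrayWeights, pool number or slide column as a block, and leaving out each pool. Settings that combine the loss of wild type pool 1 with another change were chosen after seeing the data.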

Additional observations from a re-analysis of the deposited data

Results flagged for a closer look

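A pool lay far from the remaining 3 of its group in 7 of the 24 groups examined; chance alone flags about 1 in 20, or 1.2. In 6 of the 7 it was wild type pool 1: its level lay far from the other wild type pools for the variant 1 probe of Cxcl12 (1.37), for Cxcr4 (-0.228) and for Ackr3 (-0.688), as did its within-pool difference of Cxcr4 minus Ackr3 (0.46), its array median signal (2023) and its 75th percentile (4211). The remaining one was Aldh1a2 in knockout pool 7 (0.0591).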

How the results depend on the processing

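No member passed the threshold under any setting run. Cxcl12 stayed positive in all 31 alternatives, from 0.153 to 1.61, and Cxcr4 stayed negative in 30 of 31, the exception being scaling by the array median (0.124), which moved the median over all genes to 0.67. The tallies over 31 do not count separate checks. Other filters, single probes (variant 3 for Cxcl12), eBayes with trend and robust, and slide column as a block left the differences unchanged at 1.07 for Cxcl12 and -0.416 for Cxcr4. Many of the rest leave out pools of the same 8. As each pool was left out, Cxcl12 ran from 0.376 to 1.45, Cxcr4 from -0.525 to -0.133 and Ackr3 from -0.304 to 0.693; the end nearest or past 0 was always that without wild type pool 1, and the other end that without wild type pool 2. Ackr3 was negative in 13 of 31: with arrayWeights (-0.162), without wild type pool 1 (-0.304), then with quantile (-0.339), median (-0.51) or normexp scaling (-0.349) or arrayWeights (-0.158), and without a further pool, namely knockout pool 1 (-0.416), 2 (-0.215), 3 (-0.481) or 7 (-0.105) or wild type pool 2 (-0.206), 5 (-0.412) or 7 (-0.295). Cxcl12 minus Ackr3 turned with quantile (-0.173) and normexp scaling (-0.0985) and lay between 0.442 and 0.842 when single pools were omitted; the range for Cxcl12 minus Cxcr4 was 0.509 to 1.98. Cxcr4 minus Ackr3 ran from -1.22 to 0.171, and without wild type pool 1 and a further pool it was 0.32, 0.0634 and 0.365 (knockout pools 1, 2 and 3) and 0.0508, 0.314 and 0.149 (wild type pools 2, 5 and 7), but -0.063 without knockout pool 7. The cause of these turns was not tested. With the replicate block on pool number, Cxcl12 was at 1.28, Cxcr4 at -0.47 and Ackr3 at 0.378, no call changed, and 0 genes passed. Genes past the threshold numbered 0, but 8 with arrayWeights and, without wild type pool 1, 22 with median scaling, 1 when knockout pool 7 and 10 when wild type pool 5 was left out too. Leaving out any single pool of the 8 gave 0 genes. List medians moved by more than the SD of the 4 wild type pools in 34 cases and by less in 524. That SD includes wild type pool 1, which lay apart in many lists and widened it, so these counts do not measure stability. The other chemokine receptors count among the 524 without wild type pool 1, although their median went from -0.77 to 0.13. The permutation tests of pairs take no variance model, weights, single probes or probe filter, so these were not run for them; 4 pools against 4 limit what any test here can show.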
